A study of Mus musculus with 8 samples.

Results

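The nuclear genes for respiratory complexes II to V were compared between leukaemia stem cells with and without Nynrin. Members were taken from the deposited table by symbol: Sdha to Sdhd for complex II, Cyc1 and symbols that start with Uqcr for complex III, symbols of the Cox4 to Cox8 series for complex IV, and symbols that start with Atp5 for complex V. Symbols marked as pseudogenes with -ps were left out. This gave 49 of the 48500 genes of the table, 4 of complex II, 9 of complex III, 19 of complex IV and 17 of complex V.

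Mice carried an acute myeloid leukaemia that the homeobox genes HOXA9 and MEIS1 drive, and its stem cells were sorted from bone marrow by a gate of GFP+ c-Kit+ Gr-1- cells. About 10000 cells went into each library, made with the Smart-Seq V4 kit for very small amounts of RNA. The 4 wild-type libraries (Nynrin+/+, WT1 to WT4) and the 4 knockout libraries (Nynrin-/-, KO1 to KO4) share the driver, the tissue and the gate, and differ by label only in the Nynrin genotype. The labels give no age, no count of mice and no vector, and do not say whether each library is a mouse of its own. The p-values therefore measure the spread between libraries, which may be technical. The series' title links Nynrin to redox balance in these cells, and the 4 complexes are the part of the respiratory chain that comes after or beside complex I.

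Complex II, succinate dehydrogenase, feeds electrons from succinate into ubiquinone and is also an enzyme of the citric acid cycle. Complex III passes electrons from ubiquinone to cytochrome c, and complex IV passes them from cytochrome c to oxygen; complex III and complex IV pump protons, and complex V, the ATP synthase, lets the protons flow back and makes ATP. Complexes III, IV and V also contain a few subunits encoded by mitochondrial DNA, while all subunits of complex II are nuclear. Acute myeloid leukaemia stem cells are known for their reliance on oxidative phosphorylation.

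Several facts of the libraries bear on every value that follows. Depth ranged from 1.83 M recovered reads in KO3 and 1.96 M in WT3 to 33.09 M in WT1, so that 3 reads on a transcript of 1 kb stood for between 0.0907 FPKM (WT1) and 1.64 FPKM (KO3). FPKM counts fragments per kilobase of transcript, scaled to the depth of the library. Nynrin itself reached at most 0.286 FPKM in a WT library and lay between 0.0982 and 0.437 FPKM in Nynrin-KO, too low to check the genotype labels. Kit, the c-Kit gene of the gate, stood at 2.63 to 6.40 FPKM in WT and 2.92 to 4.91 FPKM in Nynrin-KO, and its groups overlapped. The mouse genes Meis1 and Hoxa9 were low and both higher in Nynrin-KO. The labels do not say whether their reads include those of the driver. Meis1 rose from 0.816 ± 0.109 to 3.69 ± 1.28 FPKM (mean ± SD, n = 4 each, log2 change 1.33, adjusted p = 0.00466) with no overlap. It reached 1 FPKM only in Nynrin-KO libraries, so it was tested through that group alone. Hoxa9 rose from 1.06 ± 0.614 to 3.52 ± 2.02 FPKM (log2 change 1.08, adjusted p = 0.0397) with overlap. Cd34, a stem and progenitor cell marker, fell from 55.7 to 151 FPKM over WT to 5.54 to 7.30 FPKM over Nynrin-KO (log2 change -3.48, adjusted p = 0.000929). Ly6c2, the other Gr-1 antigen, was at 948 to 2178 FPKM in WT and 1077 to 3193 FPKM in Nynrin-KO and did not pass (log2 change 0.39, adjusted p = 0.476). Their part in the members' change was not tested. Xist, made from an inactive X chromosome, marked the 4 WT libraries and KO1, and the Y-linked gene Ddx3y marked KO2, KO3 and KO4 and, at a lower level, KO1. Sex and genotype therefore cannot be told apart in 7 of the 8 libraries. Several genes of other blood cells were also higher in Nynrin-KO, and their values are set beside the members at the end.

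Of the 49 members, 43 were expressed at 1 FPKM or more in at least 4 libraries and were tested with limma, and each of these reached 1 FPKM in all 8 libraries. Among them 37 were lower in Nynrin-KO and 0 were higher, at an adjusted p under 0.05. Over all 12524 genes tested, 13.8% were lower and 14.0% were higher by the same rule. No tested member was higher in Nynrin-KO at an unadjusted p under 0.05 either, which follows from the signs of the changes. Voom, run on the recovered reads, called 38 members lower and 0 higher, where it called 18.6% of all genes lower. All 43 changes lay below 0, from -2.15 for Atp5b to -0.55 for Sdhc, with a median log2 change of -1.23 where the median of all genes tested was -0.03. In bulk RNA, fewer cells of a type that expresses a gene and less RNA of that gene per cell cannot be told apart.

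In 36 of the 43 tested members every Nynrin-KO library lay below every WT library, which held for 15.0% of all genes tested. WT1 was the highest library for all 43. KO3 was the lowest for 32 members, KO1 for 9 and KO2 for 2. Among the WT libraries WT3 was the lowest for 35 members, and among the Nynrin-KO libraries KO4 was the highest for 34. Leaving out the shallow libraries WT3 and KO3, a choice made after seeing the data, gave 41 members lower, with 17.1% of all genes lower. Without WT1 and KO1, 20 members were lower, with 7.31% of all genes lower, and the median log2 change over all 43 was -1.02.

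**Figure D1:**
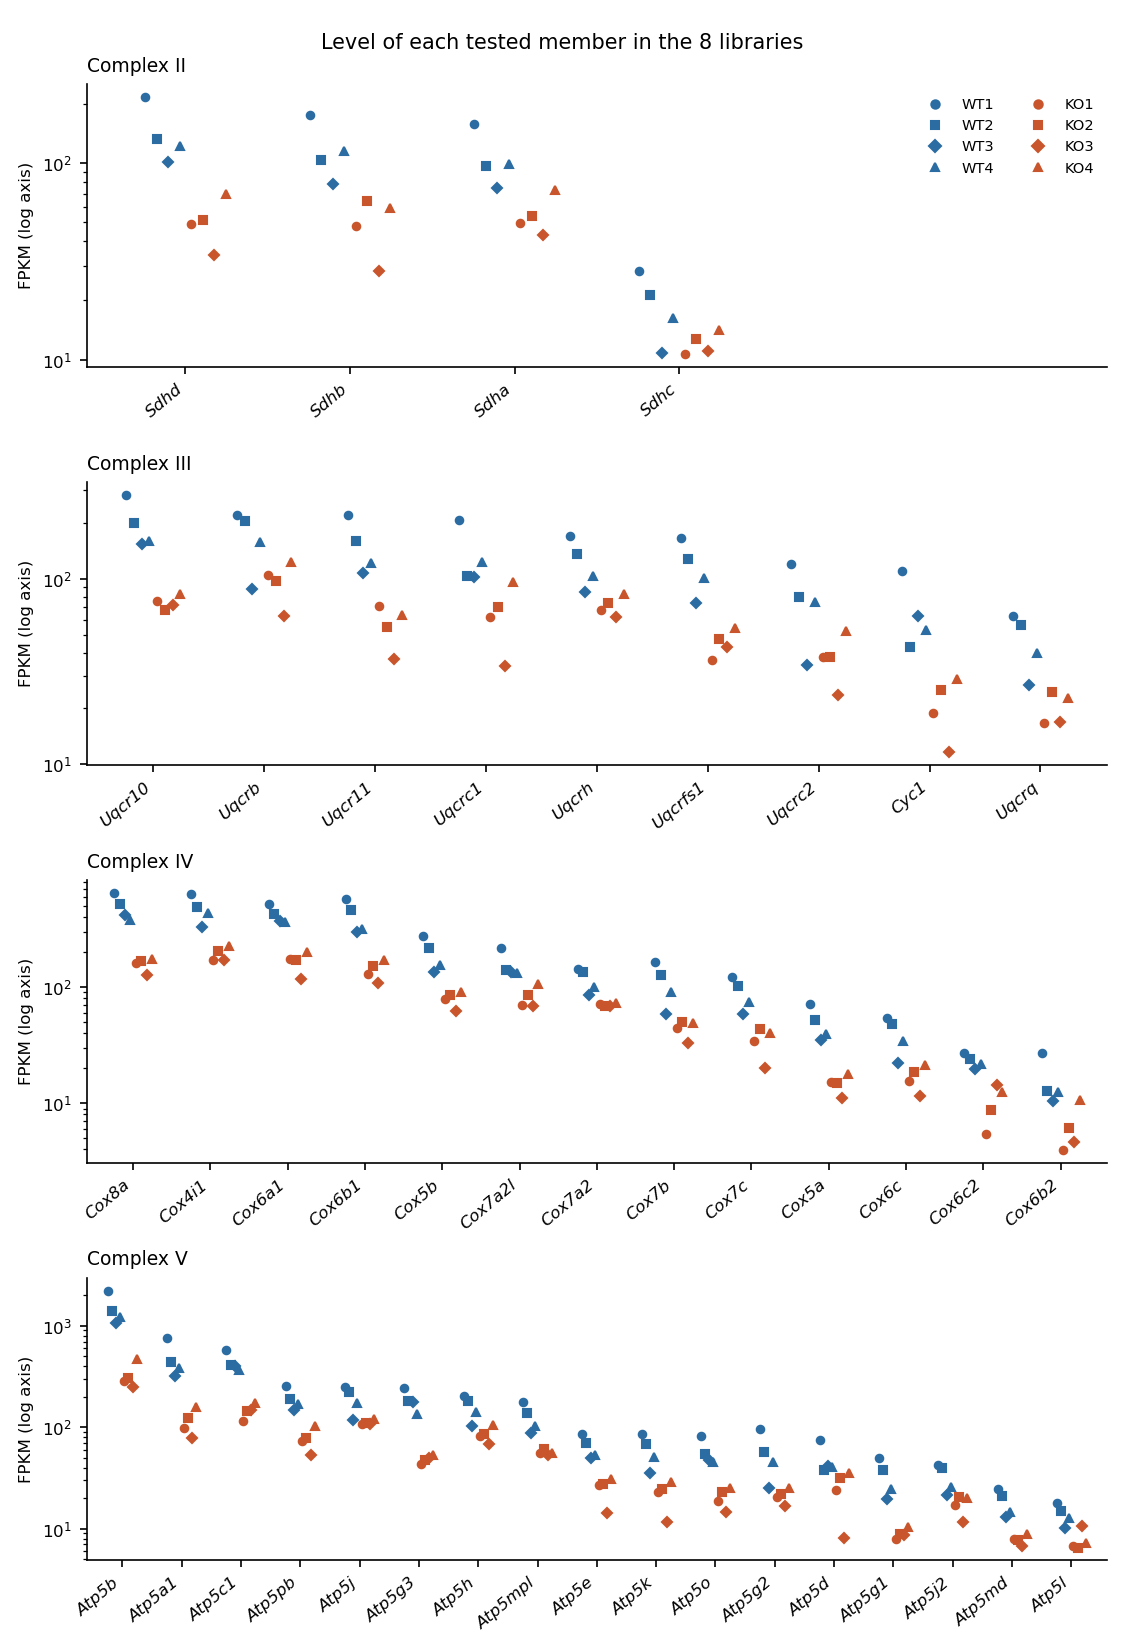
FPKM of each of the 43 tested members on a log axis, 1 panel for each complex, with WT libraries in blue and Nynrin-KO libraries in orange and 1 marker shape for each replicate number. WT1 is the highest point of every gene, and the orange points lie below all blue points in 36 genes.

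Because the members moved together, their promoters were searched for short motifs known from respiratory genes. The windows were RefSeq promoters of GRCm38.p6, from 250 bases before to 50 bases after a transcription start, and both strands were read. A window was found for 36 members, 33 of them tested. The motif GCGCANGCG of NRF1, a transcription factor of respiratory genes, stood in 12 of the 33 tested members (36.4%), in 16.4% of all tested genes with a window and in 7.03% of all genes with a window. The ETS motif CCGGAAG, which GABP (also called NRF2) binds, stood in 13 members (39.4%), against 22.6% and 9.93%. The YY1 motif AAGATGGC stood in 3 members (9.09%, against 5.87% and 3.19%), and the SP1 motif GGGGCGGG in 9 (27.3%, against 33.9% and 18.4%). The TATA box TATAAA stood in 2 members (6.06%, against 8.93% and 15.7%). A match is a description of the sequence and not a bound site.

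The 12 tested members with the NRF1 motif had a median log2 change of -1.37, and the 21 without it -1.26. For the ETS motif the medians were -1.34 in 13 members and -1.28 in 20, for SP1 -1.30 in 9 and -1.28 in 24, for YY1 -0.84 in 3 and -1.33 in 30, and for TATA -0.93 in 2 and -1.31 in 31. These differences were not tested. The motif stretches of 6 members are shown as examples from each complex, each with 20 bases on either side, chosen because they lie wholly before the annotated start of the gene. They are written 5′ to 3′ on the gene's strand, which is the minus strand for all of them, with the motif in capitals and with positions counted back from the RefSeq start. Sdha (chr13:74350310-74350358, NRF1 motif at 98 to 90 bases before the start), Sdhd (chr9:50603900-50603948, NRF1 motif at 79 to 71 bases, and chr9:50603869-50603915, ETS motif at 46 to 40 bases), Uqcr11 (chr10:80406861-80406907, ETS motif at 66 to 60 bases), Cox6a1 (chr5:115349092-115349140 and chr5:115349047-115349095, NRF1 motifs at 162 to 154 and 117 to 109 bases), Atp5h (chr11:115420032-115420080, NRF1 motif at 141 to 133 bases) and Atp5e (chr2:174464177-174464223, ETS motif at 102 to 96 bases) read as follows. In Sdhd and Atp5e the ETS motif is in the reverse orientation, so that its complement is in capitals.
Sdha NRF1: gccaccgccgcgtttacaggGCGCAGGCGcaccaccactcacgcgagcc
Sdhd NRF1: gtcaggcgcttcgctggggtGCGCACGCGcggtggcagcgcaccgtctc
Sdhd ETS: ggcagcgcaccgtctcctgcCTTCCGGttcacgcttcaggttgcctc
Uqcr11 ETS: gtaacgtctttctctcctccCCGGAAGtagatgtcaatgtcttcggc
Cox6a1 NRF1, distal: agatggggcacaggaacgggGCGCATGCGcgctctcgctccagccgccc
Cox6a1 NRF1, proximal: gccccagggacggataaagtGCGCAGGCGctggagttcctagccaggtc
Atp5h NRF1: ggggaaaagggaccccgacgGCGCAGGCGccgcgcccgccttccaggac
Atp5e ETS: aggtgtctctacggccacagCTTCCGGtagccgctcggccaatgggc

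Complex II has 4 members, and 3 of them were lower in Nynrin-KO. The fall was largest for Sdhd, a membrane anchor that holds the ubiquinone site (mm10 chromosome 9, 50596357 to 50603812), whose promoter carries both motifs shown above. It stood at 217, 132, 102 and 123 FPKM in WT1 to WT4 and at 49.3, 51.6, 34.2 and 69.9 FPKM in KO1 to KO4, a fall to 35.7% of the WT mean (log2 change -1.45, SE 0.29, adjusted p = 0.00762). Every Nynrin-KO library was below the lowest WT library, WT3. Sdhb, the iron-sulphur subunit (chromosome 4, 140961203 to 140979193), went from 176, 104, 78.6 and 115 FPKM to 48.0, 64.2, 28.4 and 59.3 FPKM (log2 change -1.23, SE 0.32, adjusted p = 0.0212). Sdha, the flavoprotein that oxidises succinate (chromosome 13, 74322254 to 74350280), went from 159, 97.3, 75.2 and 99.5 FPKM to 49.8, 53.6, 43.2 and 73.1 FPKM (log2 change -0.93, SE 0.27, adjusted p = 0.0297). The groups did not overlap for either, although KO4 came close to WT3 for Sdha. Sdhc, the other membrane anchor (chromosome 1, 171127165 to 171150603), lay at 28.4, 21.4, 10.8 and 16.3 FPKM in WT and at 10.6, 12.8, 11.05 and 14.1 FPKM in Nynrin-KO. Its groups overlapped because WT3 was as low as KO1 and KO3, and it did not pass (log2 change -0.55, SE 0.27, adjusted p = 0.165). Sdha lost its call without WT1, WT2, WT4, KO1, KO2 or KO3, each left out alone (adjusted p from 0.0553 to 0.0717), while Sdhc passed without WT3 (log2 change -0.78, adjusted p = 0.0320). Sdhb and Sdha did not pass in the 5 libraries high in Gm10800, a gene model resembling satellite repeats (adjusted p = 0.0565 and 0.0685). These libraries are WT2, WT3, WT4, KO1 and KO3, at 28612 to 142258 FPKM of Gm10800, where WT1, KO2 and KO4 had 3349 to 6076 FPKM. That fit has fewer libraries in each group, and the part of Gm10800 in its lost calls was not tested.

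Complex III has 9 members, and 6 were lower in Nynrin-KO. Both electron carriers among them fell, with a median log2 change of -1.46. Cyc1, cytochrome c1 (chromosome 15, 76343523 to 76346260), had the largest change of the complex at -1.61, with 43.0 to 110 FPKM in WT and 11.6 to 28.9 FPKM in Nynrin-KO. Uqcrfs1, the Rieske iron-sulphur protein (chromosome 13, 30540308 to 30545362), stood at 166, 128, 74.4 and 101 FPKM in WT and at 36.3, 47.6, 43.0 and 54.3 FPKM in Nynrin-KO (log2 change -1.31, SE 0.27, adjusted p = 0.00801). WT3 was again the lowest WT library and still lay above KO4. In the 5 libraries high in Gm10800 it missed the threshold (log2 change -1.30, adjusted p = 0.0545).

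The small subunits around the catalytic core of complex III had a median log2 change of -1.10, and 4 of 5 were lower. Uqcr10 (chromosome 11, 4701973 to 4704342) went from 283, 200.04, 154 and 160.2 FPKM to 75.7, 67.8, 71.9 and 82.4 FPKM (log2 change -1.37, SE 0.23, adjusted p = 0.00363). The 4 Nynrin-KO libraries were close together, with an SD of 6.21 FPKM, and all lay well below WT3. Uqcr11 (chromosome 10, 80402997 to 80406830) went from 222, 160, 107 and 122 FPKM to 71.3, 54.8, 37.1 and 63.8 FPKM (log2 change -1.40, SE 0.29, adjusted p = 0.00865), and in the 5 libraries high in Gm10800 it missed the threshold (log2 change -1.30, adjusted p = 0.0824). Uqcrq, which is next to cytochrome b, and Uqcrh, the hinge protein that holds cytochrome c1, were lower with log2 changes of -1.10 and -0.74. Uqcrb, which binds near the ubiquinone site, stood at 221, 204, 88.4 and 157 FPKM in WT and at 104, 97.9, 62.97 and 124 FPKM in Nynrin-KO. Its groups overlapped through WT3, which was below KO1, KO2 and KO4, and it did not pass (log2 change -0.74, SE 0.33, adjusted p = 0.125).

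Neither of the large core proteins of complex III passed the test. Uqcrc2 lay at 121, 80.1, 34.1 and 74.9 FPKM in WT and at 37.7, 37.9, 23.7 and 52.0 FPKM in Nynrin-KO (log2 change -0.93, SE 0.38, adjusted p = 0.101). Its WT3 value lay among the Nynrin-KO values. Uqcrc1 lay at 102 to 208 FPKM in WT and 33.6 to 96.6 FPKM in Nynrin-KO, groups that did not overlap, with a log2 change of -1.04 and an adjusted p of 0.0544. Without WT3, both Uqcrc2 (log2 change -1.28, adjusted p = 0.0173) and Uqcrb (log2 change -1.01, adjusted p = 0.0269) passed.

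Complex IV, cytochrome c oxidase, has 19 members, and all 13 that were tested were lower in Nynrin-KO. Cox8a, a small subunit of the membrane part (chromosome 19, 7215153 to 7217616), stood at 648, 519, 419.7 and 376 FPKM in WT and at 162, 167, 128 and 175 FPKM in Nynrin-KO, a fall to 32.2% of the WT mean (log2 change -1.60, SE 0.22, adjusted p = 0.00214). Cox5a, a matrix-side subunit that binds a regulatory thyroid hormone metabolite (chromosome 9, 57521274 to 57532426), went from 71.2, 52.5, 34.8 and 39.8 FPKM to 15.3, 15.0, 11.1 and 17.7 FPKM (log2 change -1.64, SE 0.25, adjusted p = 0.00290). Cox6a1 (chromosome 5, 115345642 to 115348981), the form of subunit 6a found outside heart and muscle, went from 516, 423, 371 and 367 FPKM to 173, 172, 117 and 202 FPKM (log2 change -1.34, SE 0.22, adjusted p = 0.00372). In all of these the highest Nynrin-KO library, KO4, lay far below the lowest WT library. Cox6b1, on the face where cytochrome c docks, went from 569, 461, 301 and 314 FPKM to 129, 153, 108 and 170 FPKM (log2 change -1.51, SE 0.26, adjusted p = 0.00433).

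The 10 subunits used in most tissues were all lower, with non-overlapping groups for each and a median log2 change of -1.30. Cox4i1, the largest nuclear subunit, was among them with a mean of 474 FPKM, and 193 FPKM in Nynrin-KO. Cox7b, which is X-linked, went from a mean of 110 to 44.0 FPKM, a change within the complex's range, and here too sex and genotype cannot be told apart. Cox7a2 had the smallest change of the complex. It stood at 144, 134, 85.8 and 101 FPKM in WT and at 72.2, 69.0, 68.9 and 72.8 FPKM in Nynrin-KO (log2 change -0.68, SE 0.21, adjusted p = 0.0375). The Nynrin-KO values were nearly equal, with an SD of 2.04 FPKM, and lay just below WT3. Its call was lost without WT1, WT2, WT4, KO1, KO2, KO3 or KO4 (adjusted p from 0.0555 to 0.107) and under quantile normalization (log2 change -0.25, adjusted p = 0.329).

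Cox7a2l, a paralogue of Cox7a2 that links complexes III and IV in supercomplexes, stood at 218, 141, 136 and 131 FPKM in WT and at 69.97, 86.4, 69.3 and 107 FPKM in Nynrin-KO (log2 change -0.89, SE 0.24, adjusted p = 0.0221). The groups did not overlap, and WT1 stood apart from the other WT libraries. Without KO1 the adjusted p was 0.0609. Cox6b2, known as the testis form of subunit 6b, was the only tissue-restricted isoform that could be tested. It lay at 27.0, 12.8, 10.5 and 12.4 FPKM in WT and at 3.97, 6.15, 4.68 and 10.7 FPKM in Nynrin-KO (log2 change -1.16, SE 0.35, adjusted p = 0.0343). KO4 was above WT3, so the groups overlapped, and the call was lost without WT1, WT2, KO1, KO2 or KO3 (adjusted p from 0.0571 to 0.0872).

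The other 6 isoforms, Cox4i2, Cox6a2, Cox7a1, Cox7b2, Cox8b and Cox8c, were not tested because they did not reach the filter. Cox4i2, the lung and hypoxia form, ranged from 0 to 3.47 FPKM in WT and from 0 to 0.720 FPKM in Nynrin-KO. Cox6a2, the heart and muscle form, ranged from 0 to 2.99 FPKM in WT and from 0 to 0.512 FPKM in Nynrin-KO. None of the other 4 exceeded 1.88 FPKM in any library, and the ubiquitous form was the abundant one in each of these pairs. Cox6c2 was chosen by its symbol but is annotated as a processed pseudogene of Cox6c. It fell from a mean of 23.2 to 10.3 FPKM (log2 change -1.17), and its reads may in part belong to Cox6c, which fell from 39.6 to 16.8 FPKM.

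Complex V, the ATP synthase, has 17 members, and 15 were lower in Nynrin-KO, including the members with the largest changes of all 4 complexes. Atp5b, the catalytic beta subunit of the F1 head (chromosome 10, 128083273 to 128090391), had the highest level of any member, also per kilobase of its median coding transcript. It stood at 2219, 1386, 1077 and 1211 FPKM in WT1 to WT4 and at 284, 306, 248 and 469 FPKM in KO1 to KO4, a fall to 22.2% of the WT mean (log2 change -2.15, SE 0.29, adjusted p = 0.00195). Even KO4, the highest Nynrin-KO library, lay far below WT3, the lowest WT library. Atp5c1, the gamma subunit of the rotating stalk (chromosome 2, 10056016 to 10080510), went from 582, 414, 404 and 365 FPKM to 116, 145, 148 and 172 FPKM (log2 change -1.59, SE 0.22, adjusted p = 0.00197). Atp5a1, the alpha subunit that alternates with beta in the head, had a log2 change of -2.01, with 321 to 765 FPKM in WT and 79.0 to 160 FPKM in Nynrin-KO. Atp5e, the epsilon subunit of the stalk's foot, was lower with a log2 change of -1.37.

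Atp5d, the delta subunit at the foot of the rotating stalk, was the only F1 subunit that did not pass. It lay at 74.7, 38.3, 41.9 and 40.9 FPKM in WT and at 24.0, 31.8, 8.15 and 35.4 FPKM in Nynrin-KO (log2 change -1.07, SE 0.43, adjusted p = 0.0976). The groups did not overlap, but KO4 was close to WT2, and WT1 and KO3 were far from the rest of their groups. Without WT3 and KO3, or without any 1 library, it did not pass either.

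The c ring, the rotor in the membrane that protons turn, is encoded by 3 genes for the same mature protein, and all 3 were lower. Atp5g3 (chromosome 2, 73908447 to 73911326) had the smallest p of all members and went from 245, 182, 177 and 136 FPKM to 43.4, 47.2, 50.2 and 53.7 FPKM (log2 change -1.88, SE 0.21, adjusted p = 0.00146). Atp5g1 (chromosome 11, 96068852 to 96075670) went from 49.4, 38.2, 19.6 and 24.5 FPKM to 7.85, 8.88, 8.71 and 10.4 FPKM (log2 change -1.69, SE 0.28, adjusted p = 0.00362). Atp5g2 (chromosome 15, 102662864 to 102672352) went from 95.2, 57.2, 25.0 and 45.5 FPKM to 20.5, 22.2, 16.7 and 25.0 FPKM (log2 change -1.22, SE 0.36, adjusted p = 0.0327). Groups did not overlap for these 3 genes, though for Atp5g2 KO4 and WT3 were almost equal. Atp5g2 lost its call without any library other than WT3 (adjusted p from 0.0542 to 0.0762).

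The peripheral stalk, which keeps the head from turning, had a smaller median log2 change of -1.08, and 3 of 4 were lower. Atp5o, which ties the stalk to the head, and Atp5pb, its main rod, were lower with log2 changes of -1.44 and -1.30, and Atp5h with -0.85. Atp5j, the F6 subunit, stood at 247, 222, 118 and 172 FPKM in WT and at 107, 110, 109 and 122 FPKM in Nynrin-KO (log2 change -0.70, SE 0.25, adjusted p = 0.0618). KO4 was above WT3, and without WT3 the gene passed (log2 change -0.91, adjusted p = 0.0134). Atp5j shares 175 exon bases with Gabpa on the opposite strand, and whether the counting used strand is not given in the sources. In all, 13 members share 16 to 504 exon bases with a gene on the opposite strand. Among them are Uqcrc2 with Pdzd9 (504 bases), Cox6c with Vps13b (250), Atp5pb with Wdr77 (190), Cox4i1 with Emc8 (154) and Atp5a1 with Haus1 (129). Reads on shared bases cannot be told apart without strand. The opposite-strand genes named here stood at 9.13 FPKM (Wdr77 in WT1) or less in every library.

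The 5 small membrane subunits Atp5k, Atp5l, Atp5j2, Atp5md and Atp5mpl were all lower, with log2 changes from -1.41 for Atp5k to -0.76 for Atp5l and a median of -1.10. Several of them hold dimers of the ATP synthase together at the edges of cristae. The level of some is understated, because FPKM divides by the longest transcript. That transcript is 6310 bases for Atp5l and 2733 bases for Atp5md, where the median coding transcript is 544 and 362 bases. Per kilobase of the median coding transcript, Atp5l had a WT mean of 162 FPKM in place of 14.0 FPKM, and Atp5md 139.5 FPKM in place of 18.5 FPKM. On log2(FPKM + 1) a lower level also shrinks the change, so the changes of these genes are understated too.

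**Figure D2:**
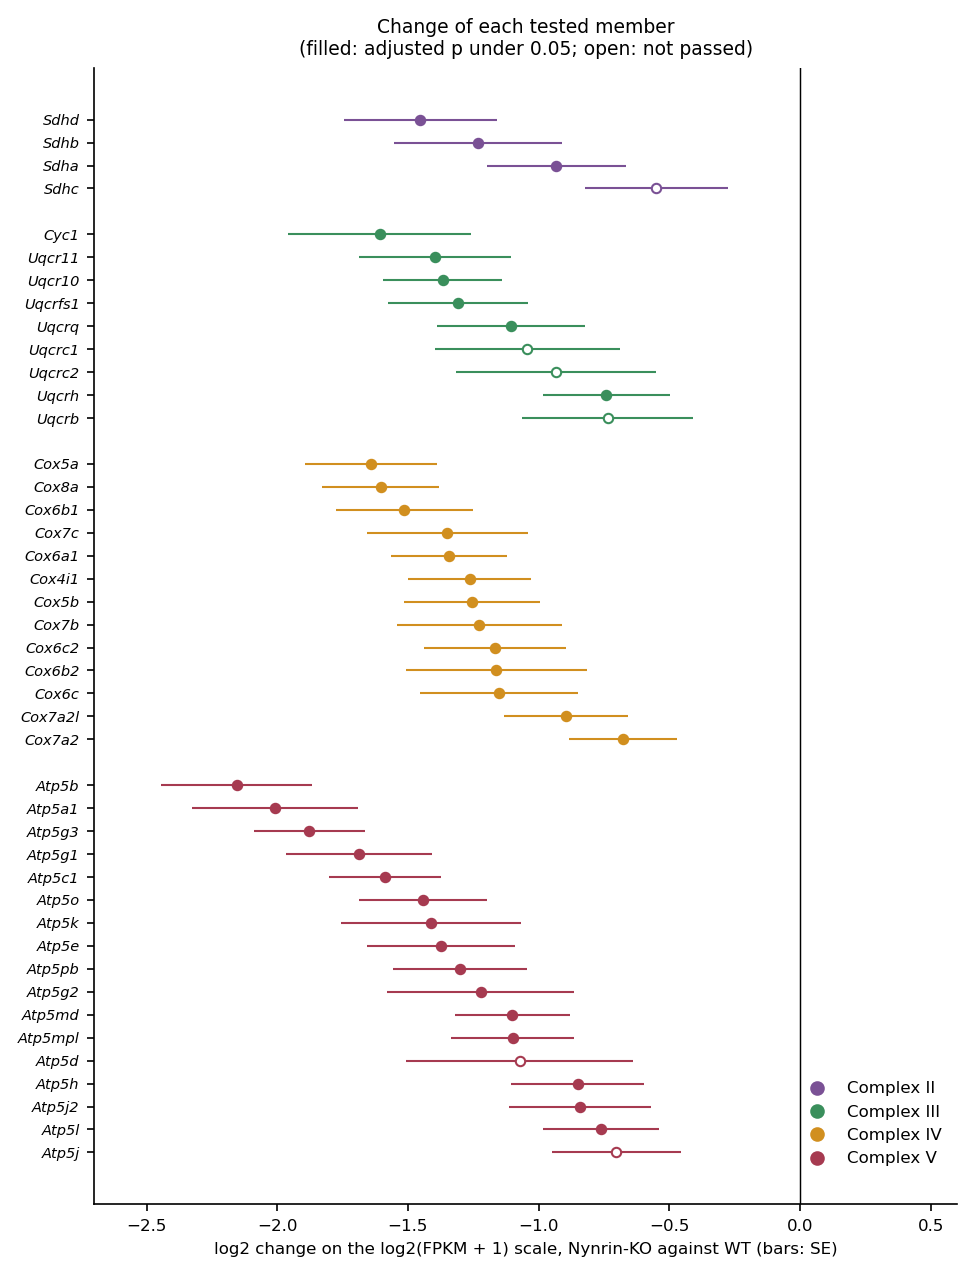
Log2 change of each tested member on the log2(FPKM + 1) scale, with bars of 1 SE, ordered by size within each complex, filled where the adjusted p was under 0.05. All 43 points lie left of 0, and the 3 most negative are Atp5b, Atp5a1 and Atp5g3 of complex V.

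Set side by side, the 4 complexes all had a lower summed level in Nynrin-KO, and their medians of single genes lay closer together than their sums. The median log2 change was -1.08 for complex II, -1.10 for complex III, -1.26 for complex IV and -1.30 for complex V. The summed level of complex II went from 389 ± 134 to 168 ± 41.9 FPKM (mean ± SD, n = 4 each), or 43.3% of the WT mean, and that of complex III from 1086 ± 354 to 490 ± 100.1 FPKM, or 45.1%. Complex IV went from 2597 ± 674 to 1019 ± 160 FPKM, or 39.2%, and complex V from 3627 ± 1138 to 1122 ± 225 FPKM, or 30.9%. In every complex all 4 Nynrin-KO sums lay below all 4 WT sums, with WT1 the highest and KO3 the lowest library. The sum of complex V was dominated by Atp5b, Atp5a1 and Atp5c1, which are also among its largest changes.

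The makeup of the summed level therefore differed between the groups. Complex V took 48.3%, 45.7%, 47.5% and 46.5% of the summed FPKM of all members in WT1 to WT4 and 38.4%, 39.1%, 41.2% and 41.5% in KO1 to KO4. Complex III took 14.4%, 14.3%, 12.9% and 14.5% in WT and 18.6%, 17.3%, 16.4% and 17.6% in Nynrin-KO. The groups did not overlap for either share, while the shares of complex II (4.57% to 5.49% against 5.29% to 6.30%) and complex IV (32.0% to 35.5% against 34.7% to 37.4%) overlapped. No p was computed for these sums, since they are scores over chosen members. Together the members took 1.21% ± 0.508 (SD, n = 4) of all FPKM in WT and 0.407% ± 0.1198 (SD, n = 4) in Nynrin-KO.

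Complex I, which feeds the same chain, was measured in the same way. Of its 41 genes 39 were tested, 21 were lower and 0 were higher at an adjusted p under 0.05, with a median log2 change of -0.83 and a sum of 55.4% of the WT mean. These symbols include 3 annotated processed pseudogenes, 2 of them tested, of which Ndufb4c was lower; without them 20 of 37 tested genes were lower. Its genes with the smallest p were Ndufa5, Ndufc1 and Ndufa12, with log2 changes of -1.42, -1.39 and -1.46. The share called lower was 53.8% in complex I, 75.0% in complex II, 66.7% in complex III, 100% in complex IV and 88.2% in complex V, and differences between these shares were not tested.

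**Figure D3:**
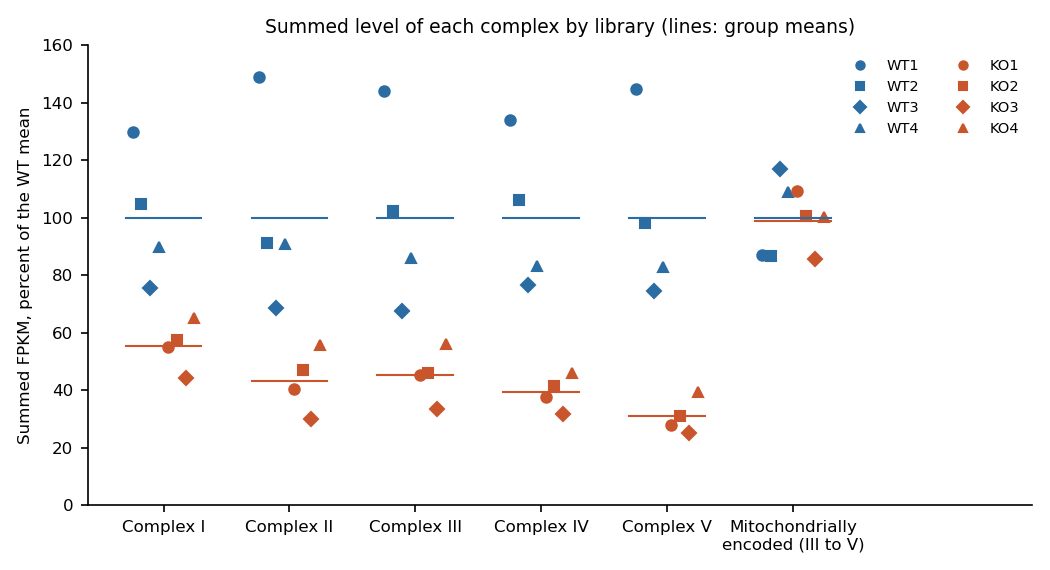
Summed FPKM of each complex and of the mitochondrially encoded subunits in each library, as a percent of the WT mean of that sum, with lines at the group means. The Nynrin-KO means lie between 30.9% (complex V) and 55.4% (complex I) of WT for the nuclear genes, and at 99.0% for the mitochondrially encoded genes.

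Paralogues were compared within libraries, as the log2 ratio of their FPKM, to see whether isoforms shifted. Of 6 pairs none passed an exact two-sided permutation test over 70 arrangements, whose smallest possible p is 0.0286. Adjusted over 6 pairs, a single pair at that p would still not pass. The test therefore cannot show that the ratios stayed the same, and the Atp5g pairs also share genes. Atp5g3 over Atp5g2 was 1.86 ± 0.65 in WT and 1.22 ± 0.25 in Nynrin-KO (mean ± SD, n = 4 each, difference -0.64, p = 0.0857, adjusted p over the 6 pairs 0.257, exact permutation test). Atp5g1 over Atp5g2 was -0.69 ± 0.28 and -1.23 ± 0.20 (difference -0.53, exact permutation p = 0.0571, adjusted 0.257). The pairs Atp5g3 and Atp5g1, Cox7a2 and Cox7a2l, Cox6b1 and Cox6b2, and Cox6c and Cox6c2 differed by -0.11, 0.22, -0.22 and 0.06, with adjusted p from 0.514 to 0.914.

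Genes whose products build the complexes were counted for each complex. Of the assembly factors, 0 of 2 tested for complex II, 2 of 6 for complex III, 1 of 17 for complex IV and 2 of 3 for complex V were lower, and 0 were higher. Unadjusted p-values under 0.05 numbered 0, 3, 3 and 2, all of lower genes, and voom called 0, 2, 1 and 2 lower and 0 higher. The medians were 0.12, -0.45, -0.21 and -0.83. Over all genes tested, limma called 13.8% lower and 14.0% higher, and voom called 18.6% lower. These shares are also the background of the lists that follow. The shares of all genes at an unadjusted p under 0.05 were not computed and cannot be smaller than the limma shares. The unadjusted counts of a list are therefore not set against a background. Uqcc2 and Uqcc1, which help to make cytochrome b, fell from 21.9 ± 5.56 to 10.7 ± 3.05 FPKM and from 13.0 ± 2.12 to 8.02 ± 0.981 FPKM (mean ± SD, n = 4 each). Cox10, which makes the precursor of the haem A of complex IV, fell from 3.49 to 5.94 FPKM over the WT libraries to 2.25 to 2.68 FPKM over the Nynrin-KO libraries. Atpaf2, a chaperone of the alpha subunit, and Tmem70, which builds the c ring into the enzyme, fell with log2 changes of -0.83 and -0.87.

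The 6 subunits of complexes III to V that mitochondrial DNA encodes had no change past the threshold. With limma 0 passed in either direction, 0 had an unadjusted p under 0.05, and voom called 0. Their median log2 change was -0.09, and they summed to 37237 ± 5753 FPKM over the WT libraries and to 36879 ± 3647 FPKM over the Nynrin-KO libraries (mean ± SD, n = 4 each). The values ran from -0.24 for mt-Atp6 to 0.08 for mt-Cytb, and mt-Co3 had -0.15. WT1, the highest library for every tested nuclear member, was among the lowest for this sum (32388 FPKM), and WT3 was the highest (43595 FPKM).

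Partners of the complexes in electron supply and ATP export were mixed. Of 8 genes for cytochrome c and enzymes that deliver electrons to ubiquinone, 2 were lower and 1 was higher. Cycs, cytochrome c itself, fell from 174 ± 38.8 to 52.0 ± 13.0 FPKM (mean ± SD, n = 4 each, log2 change -1.72, adjusted p = 0.00224), and Etfa, part of the electron transfer flavoprotein, had a log2 change of -0.92. Sqor, which oxidises sulphide, rose from 15.99 ± 5.94 to 55.5 ± 11.2 FPKM (log2 change 1.78, adjusted p = 0.00295). Of 13 genes of cristae shape and ATP export 7 were lower and 0 were higher, by limma, with 9 lower and 0 higher at an unadjusted p under 0.05 and 8 lower and 0 higher by voom, and their median was -0.95. The ADP/ATP carriers Slc25a4 and Slc25a5 had log2 changes of -2.47 and -1.70, and the outer membrane channel Vdac1 -1.12. Slc25a4 ranged from 42.9 to 97.0 FPKM over the WT libraries and from 7.45 to 12.7 FPKM over the Nynrin-KO libraries.

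Of 11 tested regulators of mitochondrial biogenesis 0 were lower and 1 was higher, with a median log2 change of 0.04. At an unadjusted p under 0.05 there was 1 lower and 1 higher, and voom gave the same counts. Yy1, a zinc finger factor of nuclear respiratory genes, rose from 2.83 ± 0.573 to 4.82 ± 0.528 FPKM (mean ± SD, n = 4 each, log2 change 0.61, adjusted p = 0.0238). Nrf1, whose motif was searched for above, did not pass at 0.18, with 8.95 to 11.9 FPKM in WT and 10.3 to 14.5 FPKM in Nynrin-KO. Pprc1, a coactivator related to PGC-1, did not pass at -0.52.

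**Figure D4:**
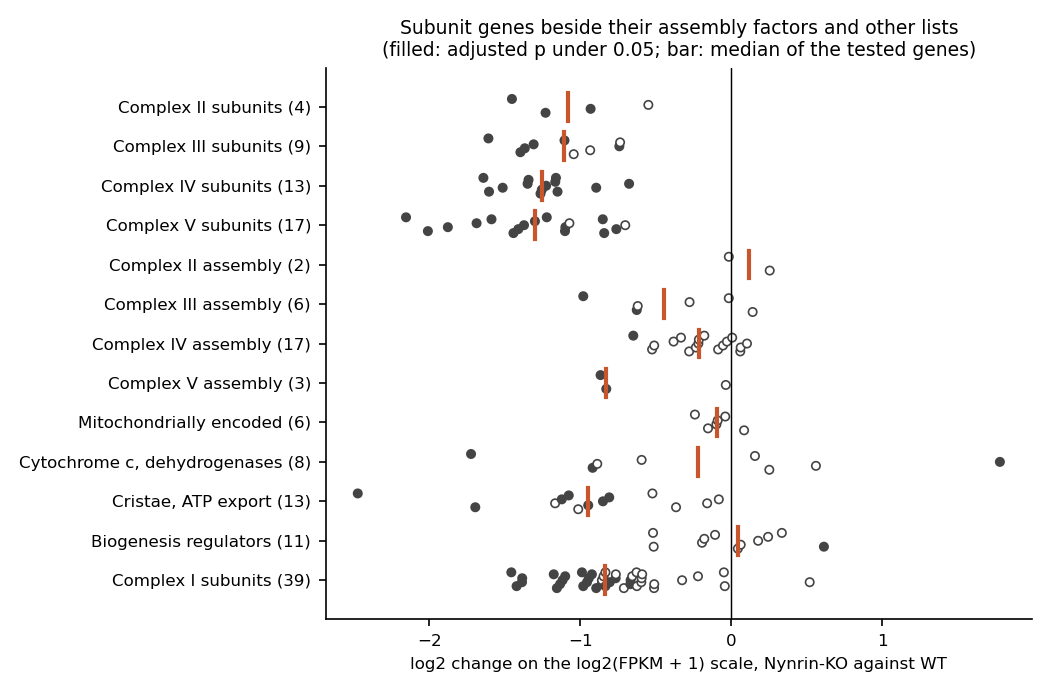
Log2 change of each tested gene in the 4 complexes and in lists of their partners, with the number tested in brackets, filled where the adjusted p was under 0.05, and an orange bar at each median. The 4 complexes have medians from -1.30 to -1.08, and the mitochondrially encoded subunits and the biogenesis regulators lie around 0.

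Sums of neutrophil, macrophage, erythroid and mast cell genes were higher in Nynrin-KO, where the members were lower. The sums of B cell and T cell genes overlapped between the groups. Of 12 mature neutrophil genes 7 were higher. The summed level of all 12 was 2986 to 104165 FPKM in WT and 124288 to 281473 FPKM in Nynrin-KO. This was 0.235% to 7.57% of reads in WT and 8.55% to 19.6% in Nynrin-KO. Most of the sum came from S100a8, S100a9, Ngp and Camp, which are not among the 7 called genes. Their Nynrin-KO means were 92607, 52186, 39864 and 13747.5 FPKM, where the mean sum was 203052 FPKM. Their log2 changes ran from 2.31 for Ngp to 2.66 for S100a9, and none of them passed. Ly6g, part of the Gr-1 antigen that the gate should exclude, went from 0.707 to 49.3 FPKM in WT to 93.5 to 264 FPKM in Nynrin-KO. Its log2 change was 3.23 (SE 0.98, limma adjusted p = 0.0381), and voom did not call it higher. Macrophage genes were higher for 6 of 8 (summed 141 to 253 against 330 to 892 FPKM), mast cell and basophil genes for 3 of 5 (6.20 to 11.4 against 47.2 to 112 FPKM), erythroid genes for 2 of 2 tested (0.186 to 1.89 against 5.68 to 44.6 FPKM) and B cell genes for 1 of 3 (19.8 to 27.5 against 18.8 to 37.0 FPKM). Voom called 6, 3, 2 and 2 genes of these lists higher. The called genes Hbb-bs and Hba-a1 (erythroid), Cd79a (B cell), Ms4a2 (mast cell) and Mertk (macrophage) reached 1 FPKM only in Nynrin-KO libraries. They passed the filter through that group alone, so their direction was set by the filter. The macrophage genes Cd68 (log2 change -0.11) and Adgre1 (-0.02) did not pass. No T cell gene was tested, and the T cell sum was at most 5.65 FPKM. Within WT, the sum of the members was highest in WT1, at 10871 FPKM, where the neutrophil sum was lowest. Among WT2 to WT4 and among the Nynrin-KO libraries the 2 sums did not run in strict opposition: WT3 had the lowest WT sum of members, at 5687 FPKM, with less neutrophil RNA than WT2 and WT4. Leaving the reads of these 12 genes and of Gm10800 out of the total, a choice made after seeing the data, gave 34 members lower, where 11.9% of all genes were lower, and 0 higher, with a median log2 change of -1.10 where the median of all genes was 0.08. The part of other cells in the members' change beyond that scaling was not tested.

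**Figure D5:**
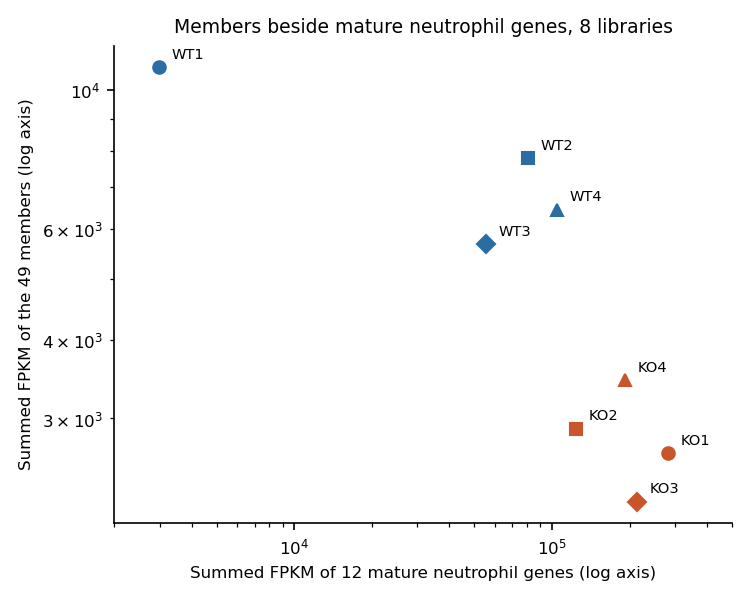
Summed FPKM of the 49 members against the summed FPKM of 12 mature neutrophil genes in each library, both on log axes. The 4 Nynrin-KO libraries lie at 124288 FPKM of neutrophil genes or more and at 3454 FPKM of members or less, and WT1 stands apart at 2986 and 10871 FPKM.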

How the data were processed

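RNA-seq values of 4 WT and 4 Nynrin-KO libraries were taken from a deposited table of 48500 genes. Its header names no unit; the values the authors deposited fit FPKM, since value times longest GENCODE M21 transcript of the gene sums to 1 shared total in every library. Per the submitters' processing notes, reads were handled on mm10 with HTSeq, Cufflinks 2.1.1 and Bowtie 0.12.9, whose roles are not stated. How reads were counted, and whether by strand, is not given in the sources. GENCODE M21 held 99.5% of the gene identifiers and gave the coordinates, counted from 1. Dividing by the value of a single read gave whole reads for 99.4% to 99.5% of values (tolerance 0.1 read), and these reads give the depths, with floors and reads covering counting error only.

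The filter asked for 1 FPKM or more in 4 or more of the 8 libraries. On log2(FPKM + 1), limma 3.58.1 in R 4.3.3 compared the genotypes two-sided with trend and robust variances and no other term, and p-values were adjusted over all 12524 genes by Benjamini-Hochberg with a threshold of 0.05. Adjusted p-values of genes come from this limma fit. Fold changes on this scale understate those of low genes, and a gene could pass the filter through 1 group alone. Paralogue ratios used exact permutation in Python 3.11.15 (numpy 2.4.6, pandas 2.3.3); plots used matplotlib 3.10.9.

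The members, lists and tests were chosen with earlier results of these data known, and roles within a complex were assigned from textbook knowledge. Values in every library were given for all complex II members, for the 3 smallest and 2 largest p in complexes III, IV and V and for tested paralogue sets; up to 3 genes of each other list were named by smallest p. Cyc1, Atp5a1, mt-Cytb, mt-Co3, Nrf1 and Pprc1 were named for their place in a list after their values were seen. Replicate numbers come from the sample titles. Deviations of libraries with the same number correlated at -0.21, -0.39, 0.33 and 0.01, so the numbers were not taken to pair libraries. Alternatives covered pseudocount, filter, scaling, limma options, library weights, the replicate block, voom on recovered reads, thresholds and libraries left out. The tests reserved for raw counts were left out, the unit being FPKM. Promoter sequences are from RefSeq (GRCm38.p6), and 13 members had no entry: Atp5a1, Atp5mpl, Cox4i1, Cox4i2, Cox6a2, Cox6c, Cox6c2, Cox8c, Cyc1, Sdhc, Uqcrb, Uqcrc2 and Uqcrq.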

Additional observations from a re-analysis of the deposited data

Results flagged for a closer look

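In 96 groups of 4 libraries (each tested member and each summed level, in WT and in Nynrin-KO), 4 held a library that stood apart from the other 3 by Dixon's 95% limit on the gap to its neighbour. Chance flags about 1 in 20 such groups. Cox7a2l stood at 217.9 FPKM in WT1, where WT2 to WT4 lay between 131 and 141 FPKM. Cox6b2 stood at 27.0 FPKM in WT1, against 10.5 to 12.8 FPKM in the other WT libraries. Atp5d stood at 74.7 FPKM in WT1, against 38.3 to 41.9 FPKM. Atp5l stood at 10.8 FPKM in KO3, the shallowest library, against 6.52 to 7.19 FPKM in the other Nynrin-KO libraries, and there it lay above WT3. For Atp5l, KO3 was the highest Nynrin-KO library, whereas it was the lowest library of all for 32 of the 43 tested members.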

How the results depend on the processing

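The number of members lower in Nynrin-KO moved with the processing, and in each of the 25 alternatives 0 members were higher and none of the 23 genes followed by name changed sign. The main fit called 3488 genes, with 37 members lower (3, 6, 13 and 15 of complexes II to V) and 13.8% of all genes lower. No filter on low values gave 1698 genes and 24 members (1.87% of all genes lower), with 1 of complex II and 8 of complex IV. Median-ratio size factors gave 2131 and 21 (8.70% of all genes lower), with 1, 7 and 9 of complexes II, IV and V. Leaving out WT1 and KO1 gave 1814 and 20 (7.31% of all genes lower), with 1, 3 and 6 of complexes II, III and IV. The 5 libraries high in Gm10800 gave 821 and 17 (4.91% of all genes lower), with 1, 2, 7 and 7 of complexes II to V, and 79.3% of their calls were lower where it was 49.7% in all libraries. An adjusted p under 0.01 gave 1454 and 20 (6.25% of all genes lower), with 1, 3 and 6 of complexes II, III and IV. Without the reads of neutrophil genes and Gm10800, 39.9% of calls were lower. Leaving out a single library gave 2358 to 3606 genes and 26 to 41 members, with 10.2% to 15.8% of all genes lower. With the replicate block, 2838 genes and 33 members were called (11.8% of all genes lower). Atp5l, Cox6b2, Cox7a2, Cox7a2l and Uqcrh lost their call (limma adjusted p = 0.0839, 0.0703, 0.0733, 0.0599 and 0.075) and Uqcrc2 gained one (0.0478), but the numbers did not pair the libraries. Of 575 values of the named genes, 496 kept their side of the threshold, 64 fell short of it and 15 came to pass it. Atp5b, Atp5c1, Atp5g1, Atp5g3, Cox5a, Cox6a1, Cox6b1, Cox8a, Sdhd and Uqcr10 passed in every alternative. The cause of these moves was not tested; leaving out WT3 and KO3 gave 4047 genes and 41 members (17.1% of all genes lower). Depth limits the low isoforms most, since 3 reads on 1 kb are 1.64 FPKM in KO3.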

Other observations

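The 10 genes that the symbol rule left out as pseudogenes with -ps were measured too. Of these, 3 were lower as their parents were: Atp5pb-ps fell from 21.5 ± 4.26 to 7.66 ± 2.15 FPKM (mean ± SD, n = 4 each, log2 change -1.39, limma adjusted p = 0.00331), Cox5b-ps from 41.9 ± 13.6 to 13.1 ± 2.31 FPKM (log2 change -1.57, limma adjusted p = 0.00329) and Atp5k-ps2 from 6.96 ± 1.73 to 2.03 ± 1.87 FPKM (log2 change -1.62, limma adjusted p = 0.0326). Cox5b-ps is annotated as protein coding in GENCODE M21 despite its symbol. Of the other 7, 5 were tested and did not pass, and 2 were too low to test. The log2 changes of these 5 ran from -1.01 for Atp5l2-ps to 0.16 for Atp5l-ps1. Over all genes tested, 13.8% were lower. The labels do not say how reads that match several genes were counted, so reads of a pseudogene and of its parent cannot be told apart.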
